A study of Mus musculus with 9 samples.

Results

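Uchl1, Enc1, Elavl4, Cend1, Syt5, Scn11a, Cnih2, Ngfr and Cnrip1, 9 genes known mainly from neurons, were followed through every lens library that lists them. They are 9 of the 190 genes in the tables of the knockout and its matched wild type, and of 7738 gene symbols in the whole series. They were picked by name after the knockout and matched wild type values were known, because some were higher and others lower in the knockout, so that contrast is described here without a test. RNA came from mouse lenses at 15.5 days post conception, 30 lenses to a library, in 3 groups of 3 libraries that the labels call independent biological replicates. The conditional knockout, abbreviated cKO, was Sip1 flox/flox with the MLR10Cre transgene on a mixed strain background. The mixed wild type was Sip1 flox/flox without Cre on the same kind of background, so both groups carry the floxed alleles and differ in the transgene. The inbred wild type was of strain C57Bl/6<har>, with no further genotype in the labels.

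Sip1 is the protein made from Zeb2, a zinc finger transcription factor that binds CACCT-type E-box sequences and is best known as a repressor in neural crest and neuronal development. MLR10Cre is a Cre line active in lens epithelium and fibre cells. The lens holds no neurons, yet fibre cells elongate, stop dividing and are known to express a number of genes first described in nerve cells. Among the genes described here are a ubiquitin hydrolase, a cytoskeletal adaptor, an RNA-binding protein, a cell cycle exit factor, and proteins of vesicle release, sodium conductance, glutamate receptor trafficking and cell surface signalling.

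The files gave RPKM, reads scaled to exon length and to the mapped reads of the library, a scale on which levels of different genes can be compared per length. Depth recovered from the RPKM steps was about 14100000 to 16700000 reads in inbred wild type, 38700000 to 44100000 in mixed wild type and 25900000 to 27400000 in cKO, so depth, the Cre transgene and genotype cannot be told apart in the knockout comparison. Between cKO and inbred wild type, strain background, floxed alleles, transgene, loss of Sip1 and depth differ together. The p-values given for that comparison therefore do not test loss of Sip1 alone. The inbred tables held 7676 genes and 7 of the 9, leaving out Enc1 and Elavl4. The lowest mean in the inbred tables was 2 RPKM. Zeb2 stood at 5.16, 5.96 and 6.31 RPKM in the inbred libraries and was not among the 190 genes, so its level gives no check of the knockout labels. The tissue label was checked on 18 lens markers, of which 17 were in the inbred tables, led by the crystallin gene Cryaa at 89016 ± 2774 RPKM (SD, n = 3). Of 43 pan-neuronal genes 6 were in the inbred tables, namely Basp1, Stmn1, Dpysl2, Ncam1, Cplx2 and Stmn4, with a summed level of 148 to 160 RPKM. Tubb3, Snap25, Map2 and Nefl, which define neurons, were not among them.

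Promoter sequence is shown because Sip1 acts by binding DNA. RefSeq (GRCm38.p6) windows of 250 bases before to 50 after a transcription start were available for 7 of the 9 genes, in 10 windows. The motifs searched were CACCTG, an E-box, and CACCT, its core, which lies within it, both on either strand, where the core reads AGGTG on the other strand. CACCTG occurred in 20.2% and CACCT in 51.9% of 32851 windows of the same length. Among the 9 genes Elavl4 was the 1 gene of 7 with CACCTG, in 2 of its 4 windows, which overlap and share the same match. CACCT was found for 4 of 7 genes and in 5 of 10 windows, a share near that of all windows. The windows of these 4 genes and of Uchl1, the most abundant gene higher in cKO and without a match, are printed 5′ to 3′ on the gene's strand, with matches in capitals.
Uchl1: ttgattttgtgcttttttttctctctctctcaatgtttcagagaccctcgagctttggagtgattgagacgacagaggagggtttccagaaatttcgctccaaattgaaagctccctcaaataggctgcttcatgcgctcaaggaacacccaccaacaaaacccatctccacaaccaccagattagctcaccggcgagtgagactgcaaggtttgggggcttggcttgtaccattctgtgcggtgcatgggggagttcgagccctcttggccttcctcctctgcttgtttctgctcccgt
Elavl4: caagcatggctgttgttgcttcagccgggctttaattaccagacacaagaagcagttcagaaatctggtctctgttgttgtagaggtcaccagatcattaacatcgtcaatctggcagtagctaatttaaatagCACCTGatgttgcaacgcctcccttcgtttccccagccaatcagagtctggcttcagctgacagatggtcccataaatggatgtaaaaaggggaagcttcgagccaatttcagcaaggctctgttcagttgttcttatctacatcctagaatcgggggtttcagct
Cend1: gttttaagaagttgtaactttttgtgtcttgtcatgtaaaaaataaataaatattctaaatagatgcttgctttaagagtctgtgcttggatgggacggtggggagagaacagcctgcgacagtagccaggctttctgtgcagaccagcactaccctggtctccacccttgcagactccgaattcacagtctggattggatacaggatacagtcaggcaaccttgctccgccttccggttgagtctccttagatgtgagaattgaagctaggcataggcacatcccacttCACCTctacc
Cnih2: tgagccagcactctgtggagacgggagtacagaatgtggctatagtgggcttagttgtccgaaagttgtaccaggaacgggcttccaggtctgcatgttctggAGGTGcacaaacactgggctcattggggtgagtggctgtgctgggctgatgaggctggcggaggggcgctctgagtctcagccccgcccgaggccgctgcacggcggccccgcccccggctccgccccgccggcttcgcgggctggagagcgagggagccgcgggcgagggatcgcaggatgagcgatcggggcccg
Ngfr: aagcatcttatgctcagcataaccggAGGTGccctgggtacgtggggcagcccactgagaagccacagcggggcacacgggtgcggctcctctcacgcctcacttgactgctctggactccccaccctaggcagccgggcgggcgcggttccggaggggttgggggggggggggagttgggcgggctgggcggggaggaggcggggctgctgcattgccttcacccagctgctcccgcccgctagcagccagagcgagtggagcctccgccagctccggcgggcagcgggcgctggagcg
These windows lie at chr5:66675871-66676170 on the plus strand for Uchl1, and on the minus strand at chr4:110287462-110287761 for Elavl4, chr7:141429513-141429812 for Cend1, chr19:5098472-5098771 for Cnih2 and chr11:95587649-95587948 for Ngfr. Counted from the start, with bases before it negative, the match began at -116 in Elavl4 and at 41 in Cend1. Cnih2 and Ngfr held the core on the other strand, at -147 and -224. GC content ran from 43.7% in an Elavl4 window to 71.7% in Ngfr, against a median of 52.7% for all windows. A match describes letters in a window and does not show binding.

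In cKO lenses Uchl1 and Enc1 were higher and the other 7 genes lower than in mixed wild type, and none of the 9 had overlapping ranges in the 2 groups. The tables of these groups are a selected list, in which every gene's normalized values differ at least 2.50-fold between cKO and mixed wild type. Ranges were apart for 100% of the 190 genes (54.2% higher and 45.8% lower in cKO), so nothing is read from that count. Of the 7 genes that were also in the inbred tables, the knockout libraries lay apart from inbred wild type in all 7, 1 higher and 6 lower, as for 93.8% of the 128 genes in all tables (32% higher and 61.7% lower), and limma called all 7. Limma called 93.8% of the 128 genes tested there (32.8% higher and 60.9% lower), so a call is close to what any gene of the tables shows. The median log2 difference between cKO and inbred wild type was -1.26 over the 7 genes and -0.57 over the 128. The inbred libraries had no part in choosing the 9 genes, but the cKO libraries are shared by both comparisons. The cKO values served to choose these genes, so this comparison is not independent of the choice. The adjusted p-values given for it below are therefore not fresh tests. The lowest inbred mean was 2 RPKM, so genes low in wild type and higher in cKO tend to be missing from the 128. Enc1, at a mean of 0.81 RPKM in mixed wild type, was not listed there. The split into higher and lower and the medians depend on which genes were listed, so nothing is read from them. The sizes of the differences depended on the scaling between libraries. Quantile normalization moved the fold between cKO and mixed wild type by over 1.5 times for 7 of the 9 genes, the log2 difference going to 2.46 from 3.44 for Enc1, -2.73 from -1.81 for Elavl4, -2.80 from -1.79 for Cend1, -2.37 from -1.36 for Syt5, -3.04 from -2.10 for Scn11a, -1.90 from -1.15 for Ngfr and -3.05 from -2.10 for Cnrip1. Median centring moved all 9 by -0.88. Against inbred wild type quantile normalization moved 1 of the 7 genes that far, Cnrip1, to -1.09 from -1.77. No direction changed under either scaling. In RNA from whole lenses, fewer cells expressing a gene and less RNA in each cell cannot be told apart.

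**Figure D1:**
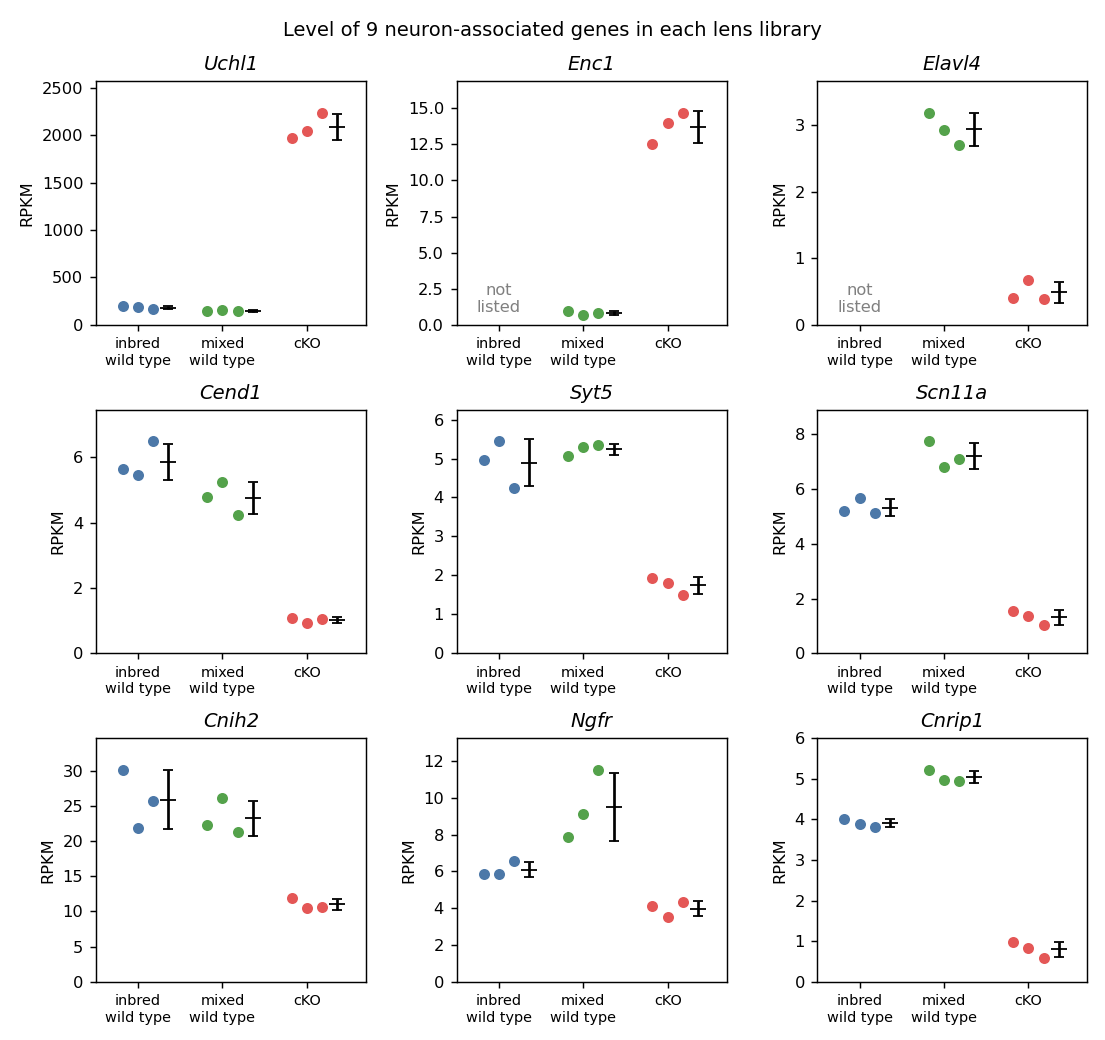
RPKM (y axis, linear from 0) of the 9 genes in each library, with points for libraries and a bar for the mean and SD of each group of 3. Uchl1 and Enc1 stand above the wild types in cKO and the other 7 genes stand below them, while Enc1 and Elavl4 have no inbred values.

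Uchl1 encodes a ubiquitin hydrolase that is abundant in neurons. It stood at 194, 183 and 165 RPKM in inbred wild type, 142, 158 and 142 RPKM in mixed wild type and 1971, 2049 and 2239 RPKM in cKO. The cKO libraries were far above all 6 wild type libraries, and the wild types came close to each other without overlapping. Already in inbred wild type the gene was at rank 174 of 7676 by mean level. Its relatives of the same enzyme class were lower there per length, with Bap1 at 19.8 ± 1.06, Uchl5 at 11.04 ± 1.14 and Uchl3 at 9.04 ± 0.79 RPKM (SD, n = 3). The cKO mean was 14.1-fold that of mixed wild type and 11.6-fold that of inbred wild type (log2 difference 3.53, SE 0.10, limma adjusted p = 3.60e-13). These values rest on 60756 to 66657 reads per cKO library and 2671 to 7817 per wild type library. An antisense gene, Uchl1os, overlaps 18.1% of the 1632 exonic bases of Uchl1 in GENCODE M21. The deposited exon length was 1146 bases, so the share of the counted exons that it overlaps is not known. The kit named in the labels does not mark strand, so reads from the 2 genes cannot be told apart where they overlap.

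Enc1 encodes a kelch protein that binds actin and is expressed early in the nervous system. Its level was 0.95, 0.68 and 0.79 RPKM in mixed wild type and 12.5, 14.0 and 14.7 RPKM in cKO. No mixed wild type library came near the cKO libraries, whose mean was 16.97-fold higher. Kelch proteins act as adaptors of cullin 3 ubiquitin ligases, and of 15 other genes of that list 11 were in the inbred tables, led by Cul3 at 60.9 ± 1.93, Rbx1 at 34.4 ± 1.30 and Klhl9 at 23.9 ± 2.21 RPKM (SD, n = 3). None of the 11 was among the 190 genes, which hold only 128 of the 7676 inbred genes, so nothing is read from this. With the exonic length of GENCODE M21, 4737 bases, the mixed values correspond to about 139 to 175 reads and the cKO values to about 1625 to 1807.

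Elavl4 encodes an RNA-binding protein that stabilises neuronal messenger RNAs. Mixed wild type libraries held 3.18, 2.93 and 2.69 RPKM, and cKO libraries 0.41, 0.67 and 0.39 RPKM. The groups did not overlap, and the mean was 6.01-fold lower in cKO. The cKO values rest on about 54 to 94 reads a library and varied by 32.9% of their mean (SD, n = 3), the widest relative spread of any of the 9 genes in any group. In the inbred tables the family was represented by Elavl1, its broadly expressed member, at 13.3 ± 0.14 RPKM, while Elavl2, Elavl3 and Elavl4 were not listed.

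Cend1 encodes a membrane-anchored protein that promotes cell cycle exit and neuronal differentiation. Its levels were 5.64, 5.46 and 6.49 RPKM in inbred wild type, 4.79, 5.24 and 4.24 RPKM in mixed wild type and 1.09, 0.92 and 1.04 RPKM in cKO. All 3 cKO libraries were below all wild type libraries. The cKO mean was 4.69-fold lower than in mixed and 5.78-fold lower than in inbred wild type (log2 difference -2.07, SE 0.14, limma adjusted p = 1.91e-09). It was counted from 42 to 53 reads a library in cKO and 158 to 401 in the wild types. The 8 other genes of its list were all in the inbred tables, among them Cdkn1c, a cyclin-dependent kinase inhibitor of differentiating fibre cells, at 610 ± 21.1 RPKM (SD, n = 3), and Cend1's binding partner Ranbp9 at 8.03 ± 0.28 RPKM. Of these 8, Btg2, an antiproliferative gene, was also on the selected list of 190 and stood at 6.80 ± 0.55 RPKM in mixed wild type and 22.3 ± 0.85 RPKM in cKO (SD, n = 3).

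Syt5 belongs to the synaptotagmins, calcium sensors of vesicle release. Levels were 4.97, 5.44 and 4.25 RPKM in inbred, 5.06, 5.31 and 5.34 RPKM in mixed wild type and 1.92, 1.81 and 1.498 RPKM in cKO. The wild types overlapped and the cKO libraries lay below both. The cKO mean was 3.001-fold lower than in mixed and 2.80-fold lower than in inbred wild type (log2 difference -1.26, SE 0.15, limma adjusted p = 7.09e-07). Of 29 other genes for synaptotagmins and vesicle fusion 9 were in the inbred tables, led by Syt11 at 73.4 ± 5.70, Napa at 33.3 ± 1.04, Vamp3 at 25.1 ± 0.90, Vamp2 at 11.6 ± 1.09 and Syngr2 at 6.00 ± 0.30 RPKM (SD, n = 3). Syt5 was thus a minor synaptotagmin transcript of the inbred lens next to Syt11. None of these 9 genes was among the 190, as was the case for all but 128 of the 7676 inbred genes.

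Scn11a encodes a voltage-gated sodium channel of sensory neurons. It was at 5.18, 5.69 and 5.11 RPKM in inbred, 7.75, 6.80 and 7.10 RPKM in mixed wild type and 1.54, 1.38 and 1.02 RPKM in cKO. The 3 groups were in separate ranges, with mixed wild type the highest. The mean in cKO was 5.51-fold lower than in mixed and 4.07-fold lower than in inbred wild type (log2 difference -1.70, SE 0.15, limma adjusted p = 3.82e-08). Of the 14 other sodium channel genes of the list 0 were in the inbred tables. With 5837 exonic bases the gene had 154 to 246 reads a library in cKO.

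Cnih2 encodes a cornichon protein that accompanies AMPA-type glutamate receptors. After Uchl1 it was the most abundant of the 7 in the inbred lens, at 30.2, 21.9 and 25.8 RPKM, with 22.4, 26.1 and 21.3 RPKM in mixed wild type and 11.9, 10.4 and 10.7 RPKM in cKO. The wild types overlapped and the cKO libraries lay below them. The mean in cKO was 2.11-fold lower than in mixed and 2.35-fold lower than in inbred wild type (log2 difference -1.19, SE 0.12, limma adjusted p = 2.11e-07). Its differences from mixed wild type were the smallest of the 9 genes. On the authors' normalized values the ratio was 2.62, at position 17 from the smallest among the 190 genes, whose smallest ratio was 2.50. The paralogues Cnih at 46.4 ± 1.85 and Cnih4 at 5.07 ± 0.48 RPKM (SD, n = 3) were in the inbred tables. Cacng7, a further AMPA receptor auxiliary gene, stood at 13.7 ± 0.76 RPKM, whereas no AMPA receptor subunit gene, Gria1 to Gria4, was listed.

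Ngfr encodes the low-affinity neurotrophin receptor, a surface protein of neural crest, glia and some neurons. Its levels were 5.86, 5.86 and 6.59 RPKM in inbred, 7.90, 9.15 and 11.5 RPKM in mixed wild type and 4.12, 3.51 and 4.32 RPKM in cKO. The groups did not overlap, but mixed wild type was wide, with an SD of 19.4% of the mean where counting its 1053 to 1752 reads would alone give 2.68%. The cKO mean was 2.39-fold lower than in mixed wild type and 1.53-fold lower than in inbred wild type (log2 difference -0.56, SE 0.14, limma adjusted p = 0.00115), the smallest of the 7 differences from inbred wild type. Of the 17 other neurotrophin genes 5 were in the inbred tables: Ngfrap1 at 179 ± 13.5, Maged1 at 147 ± 3.41, Sort1 at 12.2 ± 1.68, Ripk2 at 6.26 ± 0.34 and Traf6 at 3.31 ± 0.19 RPKM (SD, n = 3). These encode proteins known to bind the receptor or to act downstream of it. None was among the 190, as was the case for all but 128 of the 7676 inbred genes. Bdnf, Ntf3, Ntf5 and the Trk receptor genes were not in the inbred tables.

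Cnrip1 encodes a protein that binds the tail of the cannabinoid receptor. It stood at 4.01, 3.89 and 3.82 RPKM in inbred, 5.22, 4.97 and 4.95 RPKM in mixed wild type and 0.97, 0.84 and 0.60 RPKM in cKO. The 3 groups did not overlap, and the wild type libraries were tightly grouped. The cKO mean was 6.30-fold lower than in mixed and 4.88-fold lower than in inbred wild type (log2 difference -1.77, SE 0.14, limma adjusted p = 1.72e-08). It had 62 to 106 reads a library in cKO. The cannabinoid receptor genes Cnr1 and Cnr2 were not in the inbred tables, whereas the lipid enzyme genes Abhd12 at 10.9 ± 0.57, Daglb at 4.06 ± 0.16 and Napepld at 2.699 ± 0.02 RPKM (SD, n = 3) were. Plek on the opposite strand overlaps 4.97% of the exonic bases of Cnrip1, and Yif1a overlaps 1.02% of those of Cnih2, both in GENCODE M21. For Cnih2 the deposited exon length was 1237 bases, against 1369 in GENCODE M21.

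**Figure D2:**
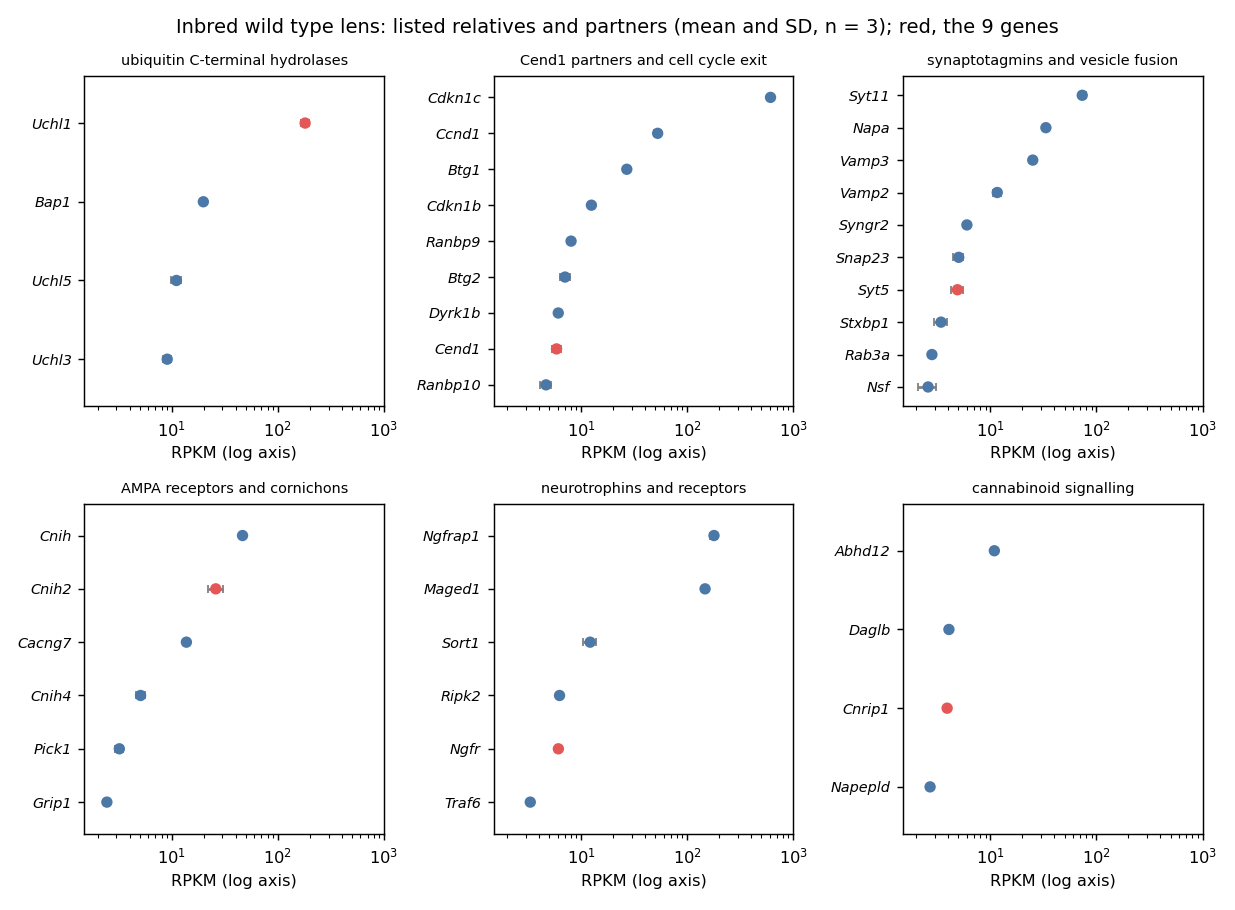
Mean RPKM in inbred wild type (x axis, log scale; bars, SD over 3 libraries) of listed genes from 6 families or pathways, with the genes of this report in red. Uchl1 leads its enzyme class, whereas Syt5, Cend1, Ngfr and Cnrip1 stand below the leading genes of their lists.

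The order of levels differed between groups. In inbred wild type it ran Uchl1, Cnih2, Ngfr, Cend1, Scn11a, Syt5 and Cnrip1, and the ranges of Ngfr and Cend1, Cend1 and Scn11a, and Scn11a and Syt5 overlapped. In cKO it ran Uchl1, Enc1, Cnih2, Ngfr, Syt5, Scn11a, Cend1, Cnrip1 and Elavl4, and from Syt5 down each neighbouring pair overlapped. In mixed wild type it ran Uchl1, Cnih2, Ngfr, Scn11a, Syt5, Cnrip1, Cend1, Elavl4 and Enc1, and only the ranges of Syt5, Cnrip1 and Cend1 overlapped their neighbours'. The summed level of the 7 genes that were lower in cKO was 56.3 to 60.5 RPKM in mixed wild type and 19.6 to 22.0 RPKM in cKO.

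**Figure D3:**
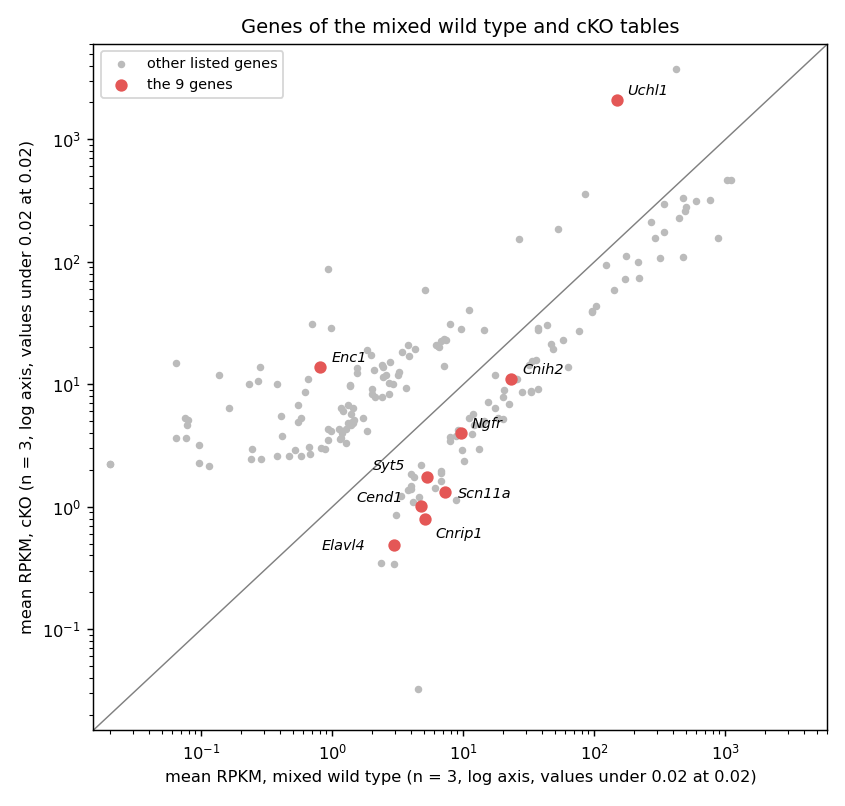
Mean RPKM in mixed wild type (x axis) and cKO (y axis), both on log scales, for the 190 genes, each mean over 3 libraries, with the diagonal marking equal levels. Uchl1 and Enc1 lie above the diagonal at very different levels, 147 and 0.81 RPKM in mixed wild type, and the other 7 lie below it.

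The comparison of the wild types asked how far these genes vary when Sip1 is intact. Strain background, floxed alleles, library set and depth differ together in it. Limma called 4 of the 7 genes, in a table where 49.2% of the 128 genes tested were called (30.5% higher and 18.8% lower in mixed wild type), so the share is near that of the table. The ranges of the groups were apart for 5 of the 7 (3 higher and 2 lower), against 57% of the 128 genes (35.2% higher and 21.9% lower). Higher in mixed wild type were Ngfr, 1.56-fold (log2 difference 0.59, SE 0.13, adjusted p = 0.00537), Scn11a, 1.35-fold (0.40, SE 0.10, adjusted p = 0.00764), and Cnrip1, 1.29-fold (0.33, SE 0.10, adjusted p = 0.02003). Uchl1 was 1.22-fold lower (-0.29, SE 0.10, adjusted p = 0.0332). The remaining 3 were not called: the 95% interval of the log2 difference ran from -0.53 to -0.02 for Cend1 (adjusted p = 0.0643), from -0.43 to 0.13 for Cnih2 (0.343) and from -0.15 to 0.34 for Syt5 (0.492). The mixed wild type libraries also served to choose the 9 genes, so this contrast is not independent of the choice. The median log2 difference was 0.10 over the 7 genes and 0.08 over the 128.

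The wild type calls for these genes depended on single libraries and on scaling. Uchl1 was no longer called without inbred replicate 1 (adjusted p = 0.0852) or 2 (0.0868), or without mixed replicate 1 (0.076) or 3 (0.149), over a range of 0.0274 to 0.149. Cnrip1 was no longer called without mixed replicate 1 (0.0605), 2 (0.0575) or 3 (0.0795), over a range of 0.0246 to 0.0795. Without mixed replicate 1 or 3, 2 of the 7 genes were called. Ngfr and Scn11a were called with any 1 library left out (highest adjusted p = 0.0196 and 0.0301). Median centring, which moved every log2 difference by -0.15, left 1 gene higher and 3 lower in place of 3 and 1, with Scn11a (adjusted p = 0.12) and Cnrip1 (0.326) not called. Quantile normalization left 3 higher and 2 lower. Over the whole table these scalings gave 23 higher and 37 lower, and 28 and 28, against 39 and 24.

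**Figure D4:**
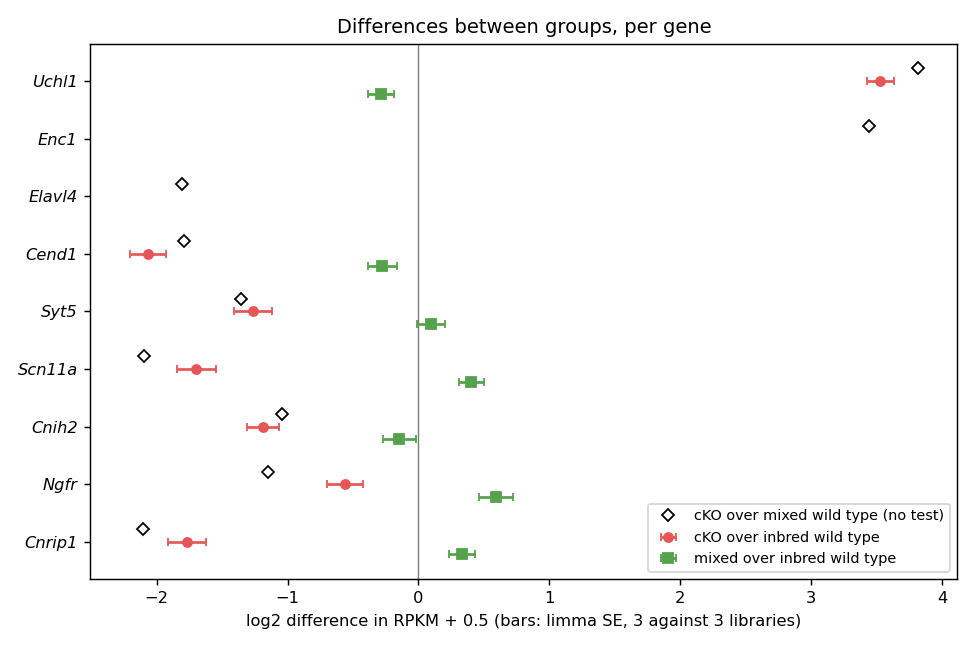
Log2 difference in RPKM + 0.5 (x axis) for each gene between cKO and mixed wild type (open diamonds, no error or test), cKO and inbred wild type (red) and mixed and inbred wild type (green), with bars for limma's SE. The differences between the wild types span -0.29 to 0.59, and those of cKO from inbred wild type span -2.07 to 3.53.

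Both wild types can be set beside cKO gene by gene, although the comparisons share libraries. For Ngfr, mixed wild type was above inbred wild type and cKO below it, so its ratio to cKO was 2.39 against one wild type and 1.53 against the other. Scn11a (5.51 and 4.07) and Cnrip1 (6.30 and 4.88) showed the same order. Cend1 (4.69 and 5.78) and Cnih2 (2.11 and 2.35) showed the reverse order.

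Spread between libraries was compared with the counting error of the recovered reads for the 7 genes with a deposited exon length. In 17 of 21 combinations of gene and group the SD exceeded what counting alone gives. The 4 exceptions were Cend1 in cKO (8.85% against 14.5%), Syt5 in mixed wild type (2.88% against 5.10%) and Cnrip1 in mixed (2.99% against 3.44%) and inbred wild type (2.53% against 6.38%). Uchl1 was the most deeply counted, with an SD of 6.60% in cKO against 0.40% from counting. Counting error covers reads only and not the making of the libraries.

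**Figure D5:**
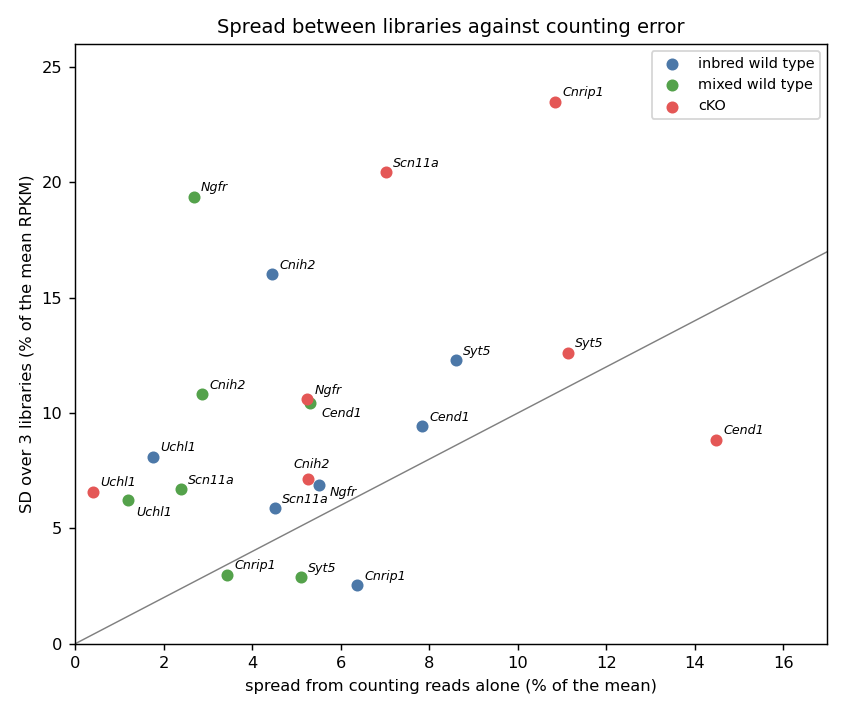
SD over 3 libraries as a percentage of the mean RPKM (y axis) against the percentage that counting of reads alone gives (x axis), 1 point per gene and group, with the diagonal marking equality. Ngfr in mixed wild type and Scn11a and Cnrip1 in cKO lie far above the diagonal, and 4 points lie below it.

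Of 43 pan-neuronal genes 2 were among the 190, as were 190 of the 7738 symbols of the series. They were 2 of the 6 in the inbred tables, where 128 of 7676 genes were also among the 190. Both fell in cKO, but 2 genes do not stand for neuronal genes as a set. Chrna4, a neuronal acetylcholine receptor gene outside the lists, picked after its value was seen, was at 1.84 RPKM in mixed wild type and 19.2 RPKM in cKO. Stmn4, a stathmin that regulates microtubules, went from 2.95 ± 0.02 to 0.34 ± 0.17 RPKM (SD, n = 3; log2 difference -2.06). Dpysl2, a regulator of axon microtubules, went from 32.9 ± 1.70 to 8.78 ± 0.47 RPKM (log2 difference -1.85). The 190 genes are a list selected on this same contrast, so no test is given for these 2 genes. Limma called 99.5% of the 190, 54.2% higher and 45.3% lower, so a call there is what nearly any listed gene shows. Dpysl2 was also 1.71-fold higher in mixed than in inbred wild type (limma adjusted p = 0.00033), whereas Stmn4 was not called there (0.470).

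Some markers of other cells were also among the 190 genes, all of which differ between cKO and mixed wild type. These markers moved in both directions, and their part in the results was not tested. Of 13 neural crest and Schwann cell markers 1 was listed, Pmp22, a membrane protein gene also expressed in epithelia, at 94.1 to 109 RPKM in mixed wild type and 40.8 to 47.6 RPKM in cKO. In inbred wild type it was at 99.3 to 116 RPKM. Sox10, a defining gene of neural crest and Schwann cells, was not in any of the tables. Of 18 surface ectoderm markers 4 were among the 190, Krt8, Krt18, Dsp and Dsc2, and their summed level was 2.06 to 2.71 RPKM in mixed wild type and 14.9 to 19.6 RPKM in cKO. Of 22 retina markers 0 were among the 190, and 3 were in the inbred tables, Sfrp2, Nes and Hes5, with a summed level of 37.7 to 47.8 RPKM. Blood and photoreceptor genes outside the marker lists were also among the 190, and those given here were chosen after their values were seen. The globin gene Hba-a2, whose reads may be shared with its near-identical copy Hba-a1, was at 366 to 421 RPKM in inbred wild type, 392 to 529 RPKM in mixed wild type and 83.4 to 141 RPKM in cKO. The embryonic globin gene Hba-x was at 3.92 to 5.56, 5.20 to 9.22 and 1.03 to 2.65 RPKM in the same order of groups. Both were lower in cKO than in either wild type, but blood genes did not all go that way. Spna1, a red cell spectrin gene, was at 1.44 RPKM in mixed wild type and 4.85 RPKM in cKO. Igkc, an immunoglobulin gene, was at 2.39 RPKM in mixed wild type and 7.82 RPKM in cKO. Of the photoreceptor genes, Rbp3 was at 7.17 to 9.33, 4.96 to 8.06 and 1.75 to 2.33 RPKM. Pde6b, by contrast, was at 0.27 to 0.29 RPKM in mixed wild type and 12.7 to 15.0 RPKM in cKO.

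The genes whose pattern was most like each of the 9 were found by the root mean square difference of centred log2 values, over 9 libraries for the 7 genes in all tables and over 6 for Enc1 and Elavl4. Scn11a and Cnrip1 were closer to each other (0.06) than to any gene outside the 9. Outside the 9, the same pair of genes was nearest to both: Ermap, an erythroid membrane gene, and Stmn4, at 0.11 and 0.15 from Scn11a and at 0.14 and 0.12 from Cnrip1. For Uchl1 they were Myh7b (0.25), a myosin gene 11.5-fold higher in cKO than in mixed wild type, and the crystallin gene Crygs (0.31). For Enc1 they were Plxna2 (0.10), a semaphorin receptor gene, and Aldh1a3 (0.10), a retinoic acid synthesis gene. Nearest to Elavl4 were Pappa (0.12) and Aebp1 (0.12), and nearest to Cend1 were Pgm5 (0.20) and Ccdc109b (0.23). Syt5 was nearest to the glutathione transferase gene Gstm1 (0.08) and to Wdr41 (0.10), Cnih2 to Adc (0.15) and Gstp2 (0.16), and Ngfr to Cyb5r2 (0.14) and Pacsin3 (0.15). These distances describe the listed genes only.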

How the data were processed

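RNA was sequenced from 9 pools of 30 mouse lenses. Libraries were prepared with Illumina's TruSeq reagents, per the labels' protocols. The submitters' processing notes name CASAVA 1.8.2; no aligner, genome build or annotation is given in the sources used here. What the authors deposited, per the file headers, are RPKM and normalized expression values, a score of no stated unit, for each gene, with exon lengths in the inbred files. Of 7700 rows in those files 24 with repeated symbols were left out.

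Depth was taken as the value at which RPKM times exon length most often fell within 0.1 reads of a whole number, and it gave the reads. That share reached 100% of the values used in each library, but it was the quantity maximised and so is no separate check. The values used per library numbered 2806 to 3290 in inbred wild type, 14 to 19 in mixed wild type and 25 to 29 in cKO. Groups of 3 against 3 libraries were compared in R 4.3.3 by limma 3.58.1 with a mean-variance trend. It was fitted to log2(RPKM + 0.5) of all listed genes whose mean reached 1 RPKM, with Benjamini-Hochberg adjustment at 0.05. All 7 or 9 genes passed this filter. Differences on this scale understate changes of low genes, and folds are ratios of mean RPKM. The p-values rest on the spread between pools of lenses. Limma estimates that spread for each gene partly from the other listed genes, so they do not measure a gene's own spread alone. An exact permutation test of 3 against 3 cannot go below p = 0.1. The test was also run on simulated data in which many genes were left unchanged. The lists here are selected for a difference, so that run does not check the p-values given.

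The genes and lists were chosen with earlier results of these data known. Named besides the 9 genes were list members among the 190, up to 5 per list by inbred level, and for each of the 9 the 2 nearest in pattern. Some further genes among the 190 were picked after their values were seen. Same-numbered libraries were not paired by the labels. Exon overlap used GENCODE M21 (GRCm38), and 31-base words of the longest transcripts shared with other genes were at most 1.26% (Ngfr). Python 3.11.15 with pandas 2.3.3 and matplotlib 3.10.9 served the other steps. The alternatives were quantile normalization, median centring, no trend, other filters and pseudocounts, normalized values with 10 added, a joint fit, a replicate block and leaving out each library.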

Additional observations from a re-analysis of the deposited data

How the results depend on the processing

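Between cKO and mixed wild type each of the 9 genes kept its direction under every alternative that included it. Enc1 and Elavl4 were not in the joint fit of 9 libraries, and Elavl4 did not reach the stricter filter of 2 RPKM. All 7 genes kept their direction and their call between cKO and inbred wild type under every alternative run. Leaving out 1 library gave 185 to 190 listed genes called between cKO and mixed wild type, 118 to 121 between cKO and inbred wild type and 46 to 62 between the wild types. Between the wild types 4 of the 7 genes were called, with 2 to 4 when 1 library was left out and 2 with the replicate number as a block, where Uchl1 (adjusted p = 0.0926) and Cnrip1 (0.0794) were not called and 47 listed genes were called in place of 63. The numbers do not pair the libraries: same-numbered correlations were -0.52 to 0.24, over 0.1 in 2 of 9 pairs. The block changed the number of genes called in no other comparison by over 1.5 times. Differences that were not called between the wild types changed sign under median centring for Syt5 (-0.052) and Stmn4 (-0.040), and with 1 library left out for Btg2 (-0.11 to 0.032) and Pmp22 (-0.076 to 0.035). Quantile normalization and median centring assume that most genes fitted are unchanged, and these tables are selected for a difference between cKO and mixed wild type. Median centring moved every log2 difference by -0.88 between cKO and mixed wild type and by -0.35 between cKO and inbred wild type. Under quantile normalization Dsc2 was no longer called between cKO and mixed wild type (limma adjusted p = 0.0922), the contrast on which the list was selected. Depth limits Elavl4, Cend1, Syt5 and Cnrip1 in cKO most, at 42 to 106 reads a library, where the reads of Elavl4 assume its GENCODE M21 length.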
